A study of Homo sapiens with 8 samples.

Results

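Transcript levels of 41 human DNA repair genes were compared between cells labelled Caco-2 with and without Siglec-XII. The genes were chosen by symbol from 63816 entries of the deposited expression table, with the older symbol MRE11A taken for MRE11 and the entry of highest mean taken where a symbol stood on several entries. All 41 were found, and all 41 reached 1 TPM (transcripts per 1000000 transcripts) in at least 4 of the samples, the level needed to enter the test with 15590 entries. The genes fell into 6 classes by role, which were set beside each other, with 6 genes of mismatch repair, 11 of homologous recombination, 5 of the Fanconi anemia pathway, 8 of break sensing and checkpoint signaling, 4 of base excision repair and 7 of nucleotide excision repair. Base and nucleotide excision repair together are called excision repair and hold 11 genes.

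The data are RNA-seq profiles of 8 samples labelled Caco-2, the name of a line established from a human colorectal adenocarcinoma and described in the series as lacking Siglec-XII. Cells had been transfected with linearized pcDNA3.1, either empty (4 samples) or carrying SIGLEC12 (4 samples), and every sample came from cells grown out in the drug G418, so selection and vector backbone were common to both groups. Siglec-XII is a receptor of the Siglec family whose human form has lost binding of sialic acid, and the comparison asks how forced expression of the full-length protein changes the transcriptome of colorectal cancer cells. Stable clones are named in the series text, which counts fewer cultures than there are samples, and technical replicate libraries are described in the methods, so the p-values may measure only technical spread, and a difference between the selected cell populations cannot be told apart from one due to Siglec-XII. SIGLEC12 itself stood at 0.11 ± 0.05 in empty vector samples and 10.70 ± 0.06 in Siglec-XII samples on the log2(TPM + 1) scale (SD, n = 4 each), in the direction of the labels.

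Mismatch repair removes bases wrongly inserted by DNA polymerase: MutS complexes find the mispair, MutL complexes direct the cut, and an exonuclease removes the strand, and inherited loss of these genes causes Lynch syndrome, a predisposition to colorectal cancer. Homologous recombination copies an intact sister chromatid to mend a double-strand break, and the Fanconi anemia proteins unhook crosslinked strands and hand them to it. Excision repair cuts out damaged bases singly, through glycosylases, or as part of an oligonucleotide, through the XPC to ERCC4 and ERCC5 machinery. Many genes of recombination and of mismatch repair are transcribed most in S phase.

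The line was checked against marker genes before the repair genes were read. Summed epithelial markers reached 8260 to 9230 TPM in empty vector samples and 9840 to 10200 TPM in Siglec-XII samples, with all 5 of 5 detected at 1 TPM or more on average. Of 15 intestinal epithelium markers, 2 (CDX1 and CDX2) reached that level, and 5, SI, TFF3, FABP1, KRT20 and PHGR1, were listed at 0 in every sample, while 17 of 23 trophoblast markers reached it, with sums of 3440 to 3580 TPM in empty vector and 3360 to 3470 TPM in Siglec-XII samples. Among the trophoblast markers, CGA, CGB3, CGB5, CGB8, GCM1 and LEP stayed below 1 TPM. CGB7, PSG1, PSG4, ERVFRD-1 and ERVW-1 were just above it, at 1.18 to 1.4 TPM. The highest means were 1180 TPM for XAGE3 and 767 TPM for XAGE2. The profile of the line labelled Caco-2 thus lacked most markers of differentiated intestine and held many, but not all, of the trophoblast markers in both groups, and its identity was not tested further. Fibroblast markers summed to 70.7 to 86.8 TPM and 83.2 to 89.1 TPM, and blood cell markers to 1.09 to 1.94 TPM and 1.04 to 1.96 TPM. Named here are the 2 genes of lowest p within each marker list. Among epithelial markers these were the keratins KRT8 (log2 fold change 0.24, limma adjusted p = 0.086) and KRT18 (0.22, adjusted p = 0.171). Among intestinal markers they were CDX1 (0.17, adjusted p = 0.202) and CDX2 (0.23, adjusted p = 0.252). The trophoblast genes were GATA2 (0.19, adjusted p = 0.103) and XAGE2 (-0.14, adjusted p = 0.189), and the fibroblast genes COL1A1 (0.26, adjusted p = 0.149) and LUM (-0.24, adjusted p = 0.57). CD14 (0.06, adjusted p = 0.909) was the 1 blood cell gene tested. Epithelial and intestinal sums were higher in Siglec-XII samples. The median log2 fold change was 0.17 over the 5 epithelial genes and 0.198 over the 2 intestinal genes tested, beside 0.067 over all entries. At an unadjusted p of 0.05 or less by limma stood 4 of those 5 and 2 of those 2, beside 16.5% of all entries. The part of these markers in the values below was not tested. In bulk RNA, a lower level per cell and fewer cells with the transcript cannot be told apart.

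No repair gene passed the test across all entries. Of the 41 genes, 0 had an adjusted p under 0.05 by limma with Benjamini-Hochberg adjustment, against 0.648% of all entries tested (101 of 15590), and the lowest adjusted p among them was 0.143, for XRCC3. At an unadjusted p of 0.05 or less stood 5 of the 41. XRCC3, XPC and UNG were higher in Siglec-XII samples, 3 genes where 13.9% of all entries were called higher by this rule, and RAD51C and CHEK2 were lower, 2 genes where 2.61% were called lower. These 5 genes are 12.2% of the list, whereas 16.5% of all entries met the same rule. All 4 Siglec-XII samples lay above all 4 empty vector samples for 3 genes (9.17% of all entries) and below them for 1 gene, RAD51C (1.68% of all entries).

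Differences were small for every repair gene. By sign alone, 25 genes (61%) were higher and 16 lower with Siglec-XII, beside 68.1% higher over all entries, and the median log2 fold change of TPM + 1 was 0.054, beside 0.067 over all entries, so the list lay close to the middle of the transcriptome. The range ran from -0.28 for CHEK2 to 0.28 for BRCA2. The 95% interval of the difference lay within 1.5-fold in either direction for 40 of 41 genes (97.6%). This held for 82.6% of all entries and for 91.3% of protein-coding entries, the biotype of all 41 genes. The exception was BRCA2, with an interval of -0.08 to 0.64. All 41 intervals lay within 2-fold. The sign counts depended on scaling: with quantile normalization 18 genes were higher and 23 lower, and the genes at an unadjusted p of 0.05 or less became 1 higher (XRCC3) and 4 lower (RAD51C, CHEK2, XPA and NBN), while the median of all entries moved to 0.010. Over all entries 12.6% met that p under quantile normalization.

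**Figure D1:**
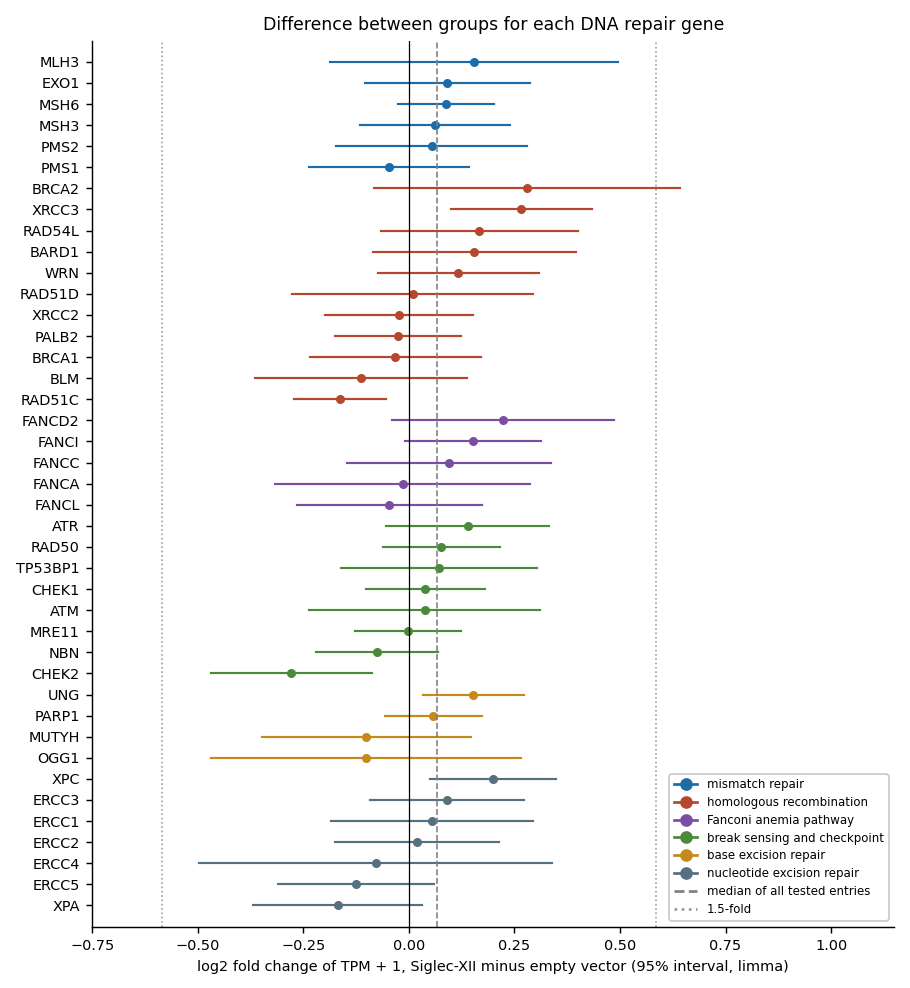
Difference between the groups for each of the 41 repair genes, as log2 fold change of TPM + 1 on the horizontal axis with limma's 95% interval (n = 4 per group), colored by class, with the median of all tested entries as a dashed line and 1.5-fold as dotted lines. The intervals of XRCC3, XPC and UNG lie above 0, those of RAD51C and CHEK2 lie below it, and BRCA2, at 0.28, has the interval that reaches past 1.5-fold.

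The repair genes differed far more from each other in level than between groups. Mean levels over the 8 samples ran from 5.84 TPM for ERCC4, an endonuclease subunit, to 245 TPM for PARP1, the sensor of strand breaks that makes poly(ADP-ribose). At the top, 5 genes stood at 100 TPM or more: PARP1, the checkpoint kinase CHEK1 (170 TPM), the uracil glycosylase UNG (156 TPM), the mismatch sensor MSH6 (125 TPM) and the recombination gene RAD51C (103 TPM). A further 15 genes lay from 20 to 100 TPM, 14 from 10 to 20 TPM and 7 below 10 TPM. The median gene of homologous recombination stood at 12.5 TPM and that of mismatch repair at 13.3 TPM. The median of all tested entries was 13.7 TPM, and that of protein-coding entries, which the repair genes all are, was 19.4 TPM. For excision repair the median was 24 TPM, for the Fanconi genes 18.5 TPM and for break sensing 27.9 TPM. TPM values are per transcript length, so these levels can be set side by side, within the limits of the transcript models used.

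**Figure D2:**
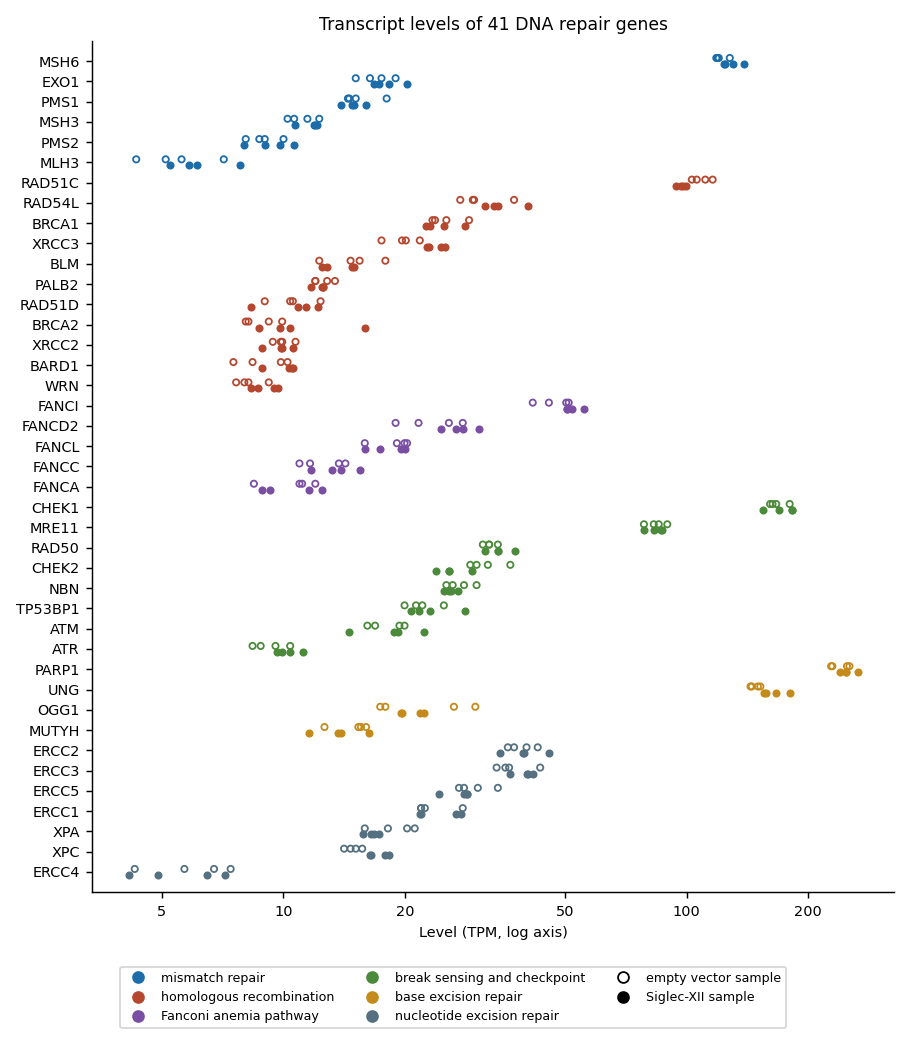
TPM of each repair gene in each of the 8 samples on a log axis, with open circles for the 4 empty vector samples, filled circles for the 4 Siglec-XII samples and colors for class. Levels span from about ERCC4 at 5.84 TPM to PARP1 at 245 TPM on average, and the open and filled circles of nearly every gene overlap.

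In mismatch repair, 5 of 6 genes were higher and 1 lower with Siglec-XII, where 68.1% of all entries were higher. The class median was a log2 fold change of 0.076, with none at an unadjusted p of 0.05 or less, beside 0.067 and 16.5% over all entries. MSH6, the MutS partner for base mispairs, stood at 122 ± 4.56 TPM in empty vector and 129 ± 6.95 TPM in Siglec-XII samples (SD, n = 4 each), a log2 fold change of 0.09 (SE 0.05, limma adjusted p = 0.411). MSH3, the partner that recognizes insertion and deletion loops, stood at 11.2 ± 0.915 TPM and 11.7 ± 0.642 TPM. Of the MutL partners, PMS2, which carries the endonuclease, had 8.94 ± 0.802 TPM and 9.34 ± 1.12 TPM, PMS1 had 15.5 ± 1.69 TPM and 15 ± 0.883 TPM, and MLH3, which also acts in meiotic crossing over, had 5.54 ± 1.18 TPM and 6.25 ± 1.11 TPM. The exonuclease EXO1 had 17.0 ± 1.66 TPM and 18.1 ± 1.51 TPM. The groups overlapped for all 6 genes. PMS2 has near-identical pseudogene copies, of which PMS2CL was listed at 12.1 TPM, above PMS2 itself at 9.14 TPM, and PMS2P4, the copy of lowest p, at 2.7 TPM (log2 fold change -0.23, limma adjusted p = 0.506), so the division of reads between them, and with it the level of PMS2, is uncertain.

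Homologous recombination held the gene of lowest p in either direction, XRCC3 and RAD51C, whose products act in the strand exchange step. XRCC3 (ENSG00000126215, chr14:104163946-104181841, GRCh37, minus strand) had log2(TPM + 1) levels of 4.21, 4.40, 4.37 and 4.51 in empty vector samples and 4.57, 4.58, 4.68 and 4.71 in Siglec-XII samples. Every Siglec-XII sample was above every empty vector sample, as for 9.17% of all entries. The log2 fold change was 0.27 (SE 0.08, unadjusted p = 0.00559, limma adjusted p = 0.143), from 19.7 ± 1.76 TPM to 23.9 ± 1.21 TPM. RAD51C (ENSG00000108384, chr17:56769934-56812972, GRCh37, plus strand), the partner of XRCC3 in a complex of those 2 proteins, had levels of 6.87, 6.81, 6.74 and 6.70 in empty vector and 6.61, 6.57, 6.63 and 6.65 in Siglec-XII samples. All of its Siglec-XII samples were below all empty vector samples, with a log2 fold change of -0.16 (SE 0.05, unadjusted p = 0.00751, limma adjusted p = 0.156), from 109 ± 5.82 TPM to 97.1 ± 2.22 TPM. Groups were separate in that direction for 1.68% of all entries. Both genes kept their sign and an unadjusted p of 0.05 or less under all 20 alternative settings tried, and neither reached an adjusted p under 0.05 in any.

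The bases upstream of these partner genes are shown because they were the repair genes with opposite differences and non-overlapping groups. They are the 250 bases before a RefSeq start of RAD51C (GRCh38.p14, chr17:58692352-58692601, plus strand) and of XRCC3 (GRCh38.p14, chr14:103715452-103715701, minus strand), 5′ to 3′. Capitals mark, in RAD51C, the 1 match to the CRE letters TGACGTCA and, in XRCC3, the 5 matches to CCAAT on either strand.
RAD51C: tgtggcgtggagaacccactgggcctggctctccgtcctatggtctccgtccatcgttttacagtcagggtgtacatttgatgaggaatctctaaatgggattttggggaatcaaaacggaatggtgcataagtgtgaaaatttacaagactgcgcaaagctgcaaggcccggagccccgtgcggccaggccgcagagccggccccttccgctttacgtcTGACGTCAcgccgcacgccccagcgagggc
XRCC3: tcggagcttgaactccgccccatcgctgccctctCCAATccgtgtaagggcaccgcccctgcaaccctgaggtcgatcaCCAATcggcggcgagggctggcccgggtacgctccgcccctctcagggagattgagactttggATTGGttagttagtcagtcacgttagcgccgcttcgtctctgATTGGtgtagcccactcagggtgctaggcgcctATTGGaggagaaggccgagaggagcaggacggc
A match to the CRE letters was found in 4 of the 38 repair genes with a promoter sequence (RAD51C, XRCC2, EXO1 and PMS2; 10.5%), in 2.25% of all 27305 genes with one and in 3.85% of tested symbols. CCAAT letters on either strand were found in 19 of 38, in 39.7% of all genes and in 43.2% of tested symbols. These matches describe letters in a window of 250 bases before and 50 after the start, and binding was not measured.

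The groups overlapped for all other recombination genes of the 41. BRCA2, the breast and ovarian cancer susceptibility protein that acts after end resection, had the largest positive difference of all 41 genes, at 0.28 (SE 0.16, unadjusted p = 0.115, limma adjusted p = 0.418). Its log2(TPM + 1) levels were 3.20, 3.45, 3.18 and 3.35 in empty vector and 4.08, 3.51, 3.43 and 3.28 in Siglec-XII samples. A single library, Siglec-XII replicate 1, stood high, and without it the log2 fold change of BRCA2 was 0.11. BRCA1, the ubiquitin ligase that promotes end resection, had 25.3 ± 2.50 TPM and 24.8 ± 2.56 TPM, and BARD1, its obligate partner, 8.99 ± 1.28 TPM and 10.1 ± 0.805 TPM. PALB2, which bridges BRCA1 and BRCA2, was at 12.6 ± 0.702 TPM and 12.3 ± 0.409 TPM. RAD54L, a DNA translocase that assists strand invasion, was at 31.0 ± 4.32 TPM and 34.8 ± 3.76 TPM. RAD51D and XRCC2, which act together in a further complex of the pathway, had log2 fold changes of 0.01 and -0.02, and the helicases BLM and WRN had -0.11 and 0.12. Over the class, the median was 0.009, from 6 genes higher and 5 lower, beside 0.067 and 68.1% higher over all entries.

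**Figure D3:**
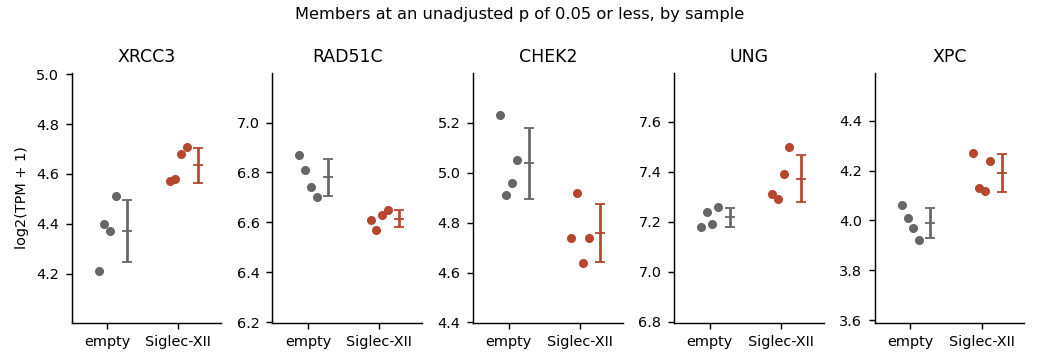
log2(TPM + 1) by sample for the 5 genes at an unadjusted p of 0.05 or less, each panel spanning 1 log2 unit, with points for the 4 samples of a group and bars for mean ± SD. Groups are separate for XRCC3, RAD51C, UNG and XPC and touch for CHEK2, where the highest Siglec-XII sample (4.92) lies just above the lowest empty vector sample (4.91).

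Of the 5 Fanconi anemia genes, 3 were higher and 2 lower with Siglec-XII, with a median of 0.095 and none at an unadjusted p of 0.05 or less. Over all entries 68.1% were higher, the median was 0.067 and 16.5% met that p. FANCD2 and FANCI form the clamp that is ubiquitinated at a crosslink. FANCD2 stood at 23.6 ± 4.01 TPM in empty vector and 27.5 ± 2.47 TPM in Siglec-XII samples, a log2 fold change of 0.22 (SE 0.12, limma adjusted p = 0.374), and FANCI at 47.0 ± 4.51 TPM and 52.2 ± 2.34 TPM, a log2 fold change of 0.15 (SE 0.07, limma adjusted p = 0.334). FANCI reached an unadjusted p of 0.05 or less under 4 of 20 alternatives, the replicate block among them (limma adjusted p = 0.297). FANCL, the ubiquitin ligase of the core complex, and its subunits FANCA and FANCC had log2 fold changes of -0.05, -0.02 and 0.10. The interval of each of the 5 lay within 1.5-fold.

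Among the 8 genes of break sensing and checkpoint signaling, CHEK2 was the 1 at an unadjusted p of 0.05 or less by limma. That is 12.5% of the class, beside 16.5% of all entries. CHEK2, the kinase that ATM activates after a break (ENSG00000183765, chr22:29083731-29138410, GRCh37, minus strand), had log2(TPM + 1) levels of 5.23, 4.91, 4.96 and 5.05 in empty vector and 4.74, 4.92, 4.64 and 4.74 in Siglec-XII samples. Of the Siglec-XII samples, 3 were below all empty vector samples, and replicate 2 overlapped with the lowest of them. The log2 fold change was -0.28 (SE 0.09, unadjusted p = 0.00892, limma adjusted p = 0.165), from 31.9 ± 3.25 TPM to 26.1 ± 2.21 TPM, and it kept its sign and an unadjusted p of 0.05 or less under all 20 alternatives. CHEK1, the kinase that ATR activates at stalled forks, was at 167 ± 8.37 TPM and 172 ± 13.2 TPM, and its log2 fold change was 0.04. The apical kinases ATM (18.1 ± 1.86 TPM and 18.7 ± 3.12 TPM) and ATR (9.27 ± 0.887 TPM and 10.3 ± 0.669 TPM) overlapped between groups. MRE11, RAD50 and NBN, which form the complex that binds broken ends, had overlapping groups, with log2 fold changes of 0.08 for RAD50 and -0.07 for NBN, and TP53BP1, which restrains resection of ends, had 0.07. For MRE11 (83.8 ± 4.63 TPM and 83.7 ± 4.11 TPM) the 95% interval of the log2 fold change was -0.13 to 0.12.

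The 11 excision repair genes divided into 6 higher and 5 lower around a median of 0.019. Over all entries 68.1% were higher and the median was 0.067. In each branch 1 gene had an unadjusted p of 0.05 or less by limma, together 18.2% of the 11, beside 16.5% of all entries. UNG, the glycosylase that removes uracil from DNA (ENSG00000076248, chr12:109535402-109564530, GRCh37, plus strand), had log2(TPM + 1) levels of 7.18, 7.24, 7.19 and 7.26 in empty vector and 7.31, 7.29, 7.39 and 7.50 in Siglec-XII samples. Its groups did not overlap, and the log2 fold change was 0.15 (SE 0.05, unadjusted p = 0.0170, limma adjusted p = 0.209), from 148 ± 4.05 TPM to 165 ± 11.1 TPM. XPC, the damage sensor of global genome repair (ENSG00000154767, chr3:14186647-14220121, GRCh37, minus strand), had levels of 4.06, 4.01, 3.97 and 3.92 in empty vector and 4.27, 4.13, 4.12 and 4.24 in Siglec-XII samples. Here too every Siglec-XII sample was above every empty vector sample, with a log2 fold change of 0.20 (SE 0.07, unadjusted p = 0.0138, limma adjusted p = 0.196). Groups were separate in that direction for 9.17% of all entries. Under 17 of 20 alternatives UNG and XPC each kept an unadjusted p of 0.05 or less, and under quantile normalization, equal upper quartiles and removal of the length trend they did not.

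The other excision repair genes overlapped between groups. PARP1 was at 240 ± 13.1 TPM and 250 ± 10.7 TPM. OGG1, the glycosylase for 8-oxoguanine, had 4.95 and 4.78 in empty vector replicates 1 and 2 but 4.24 and 4.20 in replicates 3 and 4, on the log2(TPM + 1) scale, a wider spread than between groups, and 4.36, 4.37, 4.54 and 4.51 in Siglec-XII samples. MUTYH, which removes adenine paired with 8-oxoguanine, had a log2 fold change of -0.10. In nucleotide excision repair, XPA, the scaffold that verifies damage, was at 18.9 ± 2.35 TPM and 16.6 ± 0.596 TPM, a log2 fold change of -0.17 (SE 0.09, limma adjusted p = 0.375). The TFIIH helicases ERCC2 and ERCC3 had 0.02 and 0.09, the incision nuclease subunits ERCC1 and ERCC4 had 0.05 and -0.08, and ERCC5, the nuclease on the other side of the lesion, had -0.13, all as log2 fold changes.

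Set beside each other, the classes could not be ordered beyond the spread of samples. Medians of the log2 fold change were 0.076 for mismatch repair, 0.009 for homologous recombination and 0.019 for excision repair, and the SD between samples of the class median, within groups, was 0.076, 0.062 and 0.05. The Fanconi genes had the highest median (0.095) and the widest such SD (0.123). For the Fanconi genes, the class median of deviations from each gene's mean over 8 samples was -0.23 in empty vector replicate 1 and 0.23 in Siglec-XII replicate 1, while the other 6 samples lay between 0.01 and 0.11. Recombination genes showed the same end samples, at -0.10 and 0.09. Over all tested entries these medians were -0.09 and 0.04, and empty vector replicate 1 was the lowest of the 8 samples there too. Siglec-XII replicate 1 had the highest level for 13 of the 41 genes and the lowest for 0, and empty vector replicate 1 had the lowest for 11 and the highest for 7. The matching counts over all entries were not made. There were 7 repair genes with a named transcript of 7000 nt or longer, and their median deviation was 0.17 in Siglec-XII replicate 1, where it was 0.11 over 1009 coding entries of that length. In empty vector replicate 1 those medians were -0.10 and -0.11. They were 0.08 and -0.07 in empty vector replicate 4, and -0.07 and 0.06 in Siglec-XII replicate 4. Median log2 fold changes of coding entries were 0.048 below 1000 nt and 0.104 from 4000 nt. Those of repair genes were 0.077 (5 genes) and 0.054 (19 genes). The part of transcript length in the values of these samples was not tested.

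**Figure D4:**
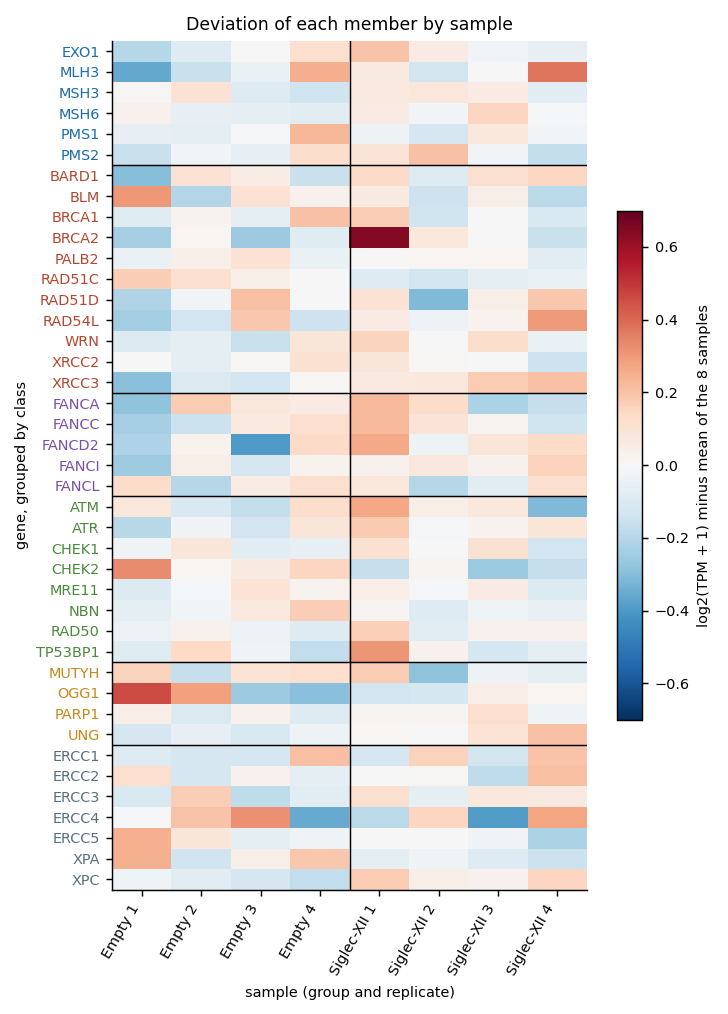
Deviation of log2(TPM + 1) of each repair gene (rows, grouped and colored by class) from its own mean over the 8 samples (columns), with red above and blue below. BRCA2 in Siglec-XII replicate 1 is the darkest red cell, and the Fanconi rows are mostly blue in empty vector replicate 1 and mostly red in Siglec-XII replicate 1.

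Ratios of partner genes within a sample do not change when a sample is multiplied by 1 factor, though they do under quantile normalization or removal of the length trend, and an exact permutation test, two-sided, was run on 16 of them, in which the smallest p that 4 against 4 samples allow is 0.0286. Of the 16, 1 ratio reached it. RAD51C over XRCC3 had log2 ratios of TPM of 2.73, 2.47, 2.43 and 2.24 in empty vector and 2.08, 2.04, 2.0 and 1.98 in Siglec-XII samples. The groups did not overlap, and the mean went from 2.47 ± 0.20 to 2.03 ± 0.05, that is from 5.54-fold to 4.07-fold more RAD51C than XRCC3 (difference -0.44, exact permutation p = 0.0286, adjusted over 16 ratios p = 0.457). The pair is made of genes already shown above to differ in opposite directions, so it adds no separate observation of them. MSH6 over MSH3, the ratio of the MutS partners that compete for a shared subunit, was 10.9-fold and 11.1-fold (exact permutation p = 0.686). CHEK1 over CHEK2 differed by 0.33 (p = 0.0857), NBN over RAD50 by -0.16 (p = 0.0571), BRCA2 over PALB2 by 0.33 (p = 0.114) and BLM over WRN by -0.25 (p = 0.143), each by the same exact permutation test and each with overlapping groups. FANCI exceeded FANCD2 in every sample, with FANCD2 over FANCI at 0.498-fold and 0.525-fold. The adjusted p of every ratio was 0.457 or higher. With 16 ratios, 1 ratio alone at the smallest exact p cannot reach an adjusted p under 0.05, so the test could not have called it.

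**Figure D5:**
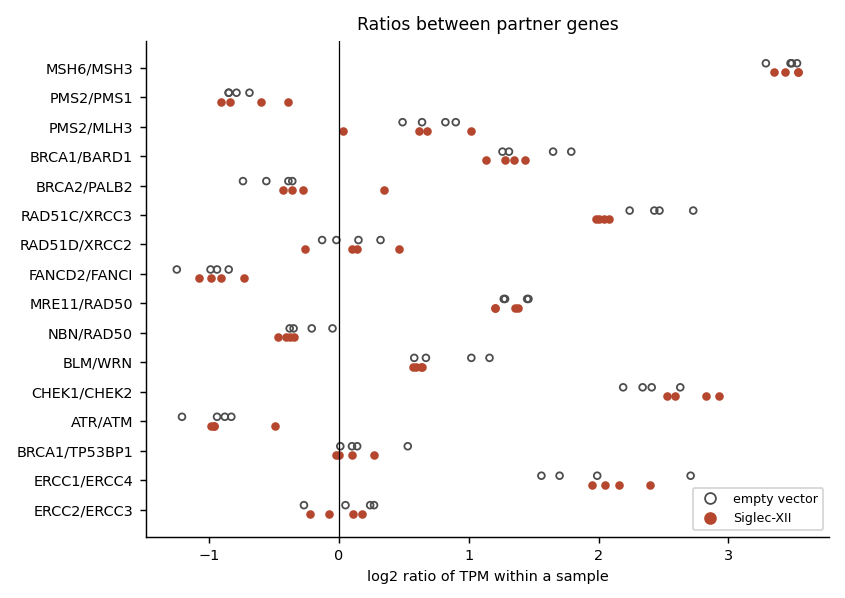
log2 ratio of TPM for 16 pairs of partner genes, with open circles for the 4 empty vector samples and filled circles for the 4 Siglec-XII samples. RAD51C/XRCC3 is the pair whose groups do not overlap (2.24 to 2.73 and 1.98 to 2.08), and the other 15 overlap.

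Promoter letters were read for the 38 repair genes present in the RefSeq table (GRCh38.p14, 250 bases before to 50 after the start; WRN, FANCI and NBN are not among them). Letters of the E2F type, the site class of the factors that drive S phase genes, were searched as TTTCCCGC, TTTGGCGC, TTTGCCGC and TTTCGCGC on both strands. They were found in 10 of the 38 genes (26.3%), beside 3.99% of all 27305 genes and 6.79% of the 9918 tested symbols with a promoter. By class these were 4 mismatch repair genes (EXO1, MSH3, MSH6 and PMS2), 3 Fanconi genes (FANCA, FANCC and FANCD2), 1 recombination gene (XRCC2), the excision genes UNG and XPC, and 0 of break sensing. Of these 10 genes, 8 were higher with Siglec-XII (median log2 fold change 0.09), and of the 28 without the letters 15 were higher (median 0.014), where 68.1% of all entries were higher, and the difference between these sets was not tested. Their levels overlapped, with medians of 14.6 TPM and 21.9 TPM. The GC box letters GGGCGG were in 31 of 38 (81.6%; 78.3% of tested symbols) and the CHR letters TTTGAA in 5 of 38 (13.2%; 13.5% of tested symbols).

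The E2F type letters are shown with their surroundings for some of these genes, since a larger share of the repair promoters than of all promoters holds them. Sequences run 5′ to 3′ on the strand of the gene, from GRCh38.p14, with capitals for the matched letters.
XPC, chr3:14178825-14178851, minus strand: cctgcgcccTTTCCCGCctctcgcgag
UNG, chr12:109098099-109098126, plus strand: agggaggtttTTTGCCGCgaaaagacca
PMS2, chr7:6009132-6009159, minus strand: gggaagtattTTTGCCGCcccgcccgga
FANCA, chr16:89816802-89816829, minus strand: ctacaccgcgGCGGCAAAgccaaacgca
FANCC, chr9:95317738-95317765, minus strand: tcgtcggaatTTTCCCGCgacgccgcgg
FANCC, chr9:95317864-95317891, minus strand: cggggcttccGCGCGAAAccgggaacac
Of the genes at an unadjusted p of 0.05 or less by limma, UNG and XPC, both higher with Siglec-XII, hold such letters. XRCC3, also higher, and RAD51C and CHEK2, both lower, do not in this window. Of the genes with the letters, FANCA (log2 fold change -0.015) and XRCC2 (-0.023) were lower. A link between the letters and the differences was not tested. No match says only that these letters are not in the bases read.

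Genes that work beside the 41 had 0 calls at an adjusted p under 0.05 as well, where 0.648% of all entries were called. For the splits below, 68.1% of all entries were higher and their median was 0.067. Of 17 other recombination genes, 9 were higher and 8 lower (median 0.013), with TOP3A, which dissolves crossed strands together with BLM, at 0.17 (limma adjusted p = 0.216) and the nuclease MUS81 at -0.17 (adjusted p = 0.293). The 10 other Fanconi genes split 5 to 5, led by FAAP100 (0.17, adjusted p = 0.46) and USP1 (0.09, adjusted p = 0.518). The 17 other base excision genes split 9 to 8, led by LIG3 (0.19, adjusted p = 0.224) and its scaffold XRCC1 (-0.15, adjusted p = 0.235), and 17 other nucleotide excision genes split 10 to 7. In the last list DDB1, a subunit of the complex that recognizes ultraviolet damage in chromatin, had 207 ± 12.8 TPM and 251 ± 7.59 TPM, a log2 fold change of 0.28 and a limma adjusted p of 0.0506, and XAB2 had 0.17 (adjusted p = 0.257). End joining genes, which mend breaks without a template, split 6 to 4, led by NHEJ1 (0.20, adjusted p = 0.273) and PRKDC (0.16, adjusted p = 0.321).

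Lists tied to replication, the cell cycle and p53 are given by their counts, beside 68.1% of all entries higher, 16.5% at an unadjusted p of 0.05 or less and a median of 0.067. Of 14 other checkpoint genes, 12 were higher (median 0.099, 4 at an unadjusted p of 0.05 or less), led by the phosphatase CDC25A (0.29, limma adjusted p = 0.086) and the kinase WEE1 (0.18, adjusted p = 0.196). Of 22 S phase genes, 18 were higher (median 0.09, 5 at that p), led by the helicase subunits MCM2 (0.27, adjusted p = 0.0966) and MCM7 (0.18, adjusted p = 0.109). Of 20 translesion and resynthesis genes, 14 were higher (median 0.03, 3 at that p), led by FEN1 (0.22, adjusted p = 0.109) and RPA1 (0.24, adjusted p = 0.13). Of 17 G2 and mitosis genes, 8 were higher and 9 lower (median -0.002, 1 at that p), with CCNB2 at -0.12 (adjusted p = 0.263) and TOP2A at -0.11 (adjusted p = 0.304). Of 18 genes known as p53 targets, 15 were higher (median 0.094, 1 at that p), with PHLDA3 at 0.34 (adjusted p = 0.232) and GADD45A at 0.24 (adjusted p = 0.317). The difference between any of these lists and the 41 repair genes was not tested.

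Annotated exons of 31 of the 41 genes overlap another gene, 30 on the opposite strand and 7 on the same strand. XRCC3 overlaps KLC1, CHEK2 overlaps HSCB, and XPC overlaps its antisense RNA, all on the opposite strand, and CHEK1 shares its strand with an overlapping STT3A and ERCC5 with the readthrough BIVM-ERCC5. Libraries were strand-specific, but use of strand in quantification is not given in the sources used here, so values of these genes may hold reads of their neighbors.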

How the data were processed

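Libraries of total RNA were sequenced as paired 100 base reads (the labels name a stranded rRNA-depleting kit and the methods of the study a poly(A)-selecting one). The authors quantified reads with kallisto (0.45.0 in the submitters' processing notes, another version in the methods) against human hg19 and deposited 1 table of log2(TPM + 1) values. Each deposited log2 column, taken back to TPM, summed to 1000000, so depth is unknown and no count test or counting interval was possible.

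Groups came from the sample titles (4 and 4). Entries at 1 TPM or more in at least 4 samples were tested with limma 3.58.1 in R 4.3.3 (lmFit, eBayes with a mean-variance trend, Benjamini-Hochberg over all 15590 entries, threshold 0.05), with the pseudocount of 1 of the table, so fold changes of low genes are understated. For partner ratios an exact permutation test, two-sided, was used. The code was tested on simulated data. Python 3.11.15, pandas 2.3.3 and matplotlib 3.10.9 were used for the rest. The 20 alternatives covered pseudocount, filter, scaling, length trend, fit, replicate block, summed entries and leaving out each library.

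The 41 genes, their classes, the 22 gene and marker lists and the 16 ratios were chosen with earlier results of these data known. Every one of the 41 genes is named, with values in every sample for those at an unadjusted p of 0.05 or less. Of each other list, genes with an adjusted p under 0.05, or else the 2 of lowest p, are named, and BRCA2 and OGG1 are given by sample because 1 library or a split of libraries set their spread, seen after their values were known. Gene positions are from GENCODE lifted to GRCh37, lengths (39 of 41 genes) are those of the transcript named in each entry, and promoters (38 of 41) are from RefSeq on GRCh38.p14, and positions of the 2 builds were never joined. Replicate numbers were not treated as pairs.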

Additional observations from a re-analysis of the deposited data

Results flagged for a closer look

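In groups of 4 samples, the highest or lowest sample was compared with its nearest neighbor as a share of the range, and 6 of 114 groups (82 for single genes, the rest for ratios) had a sample set apart past Dixon's critical value. About 1 in 20 groups (5%) is expected to be set apart by chance. Of the 6, 4 fell on Siglec-XII replicate 4. On the log2(TPM + 1) scale this library was lowest of its group for MSH3 (3.55, next 3.69), for PALB2 (3.67, next 3.75) and for ERCC5 (4.66, next 4.86), and its log2 ratio of ATR to ATM was highest, at -0.49 (next -0.96). ERCC1 was highest in empty vector replicate 4, at 4.85 (next 4.55). BARD1 was lowest in Siglec-XII replicate 2, at 3.30 (next 3.5). None of these genes or ratios had an unadjusted p of 0.05 or less between groups.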

How the results depend on the processing

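Under all 20 alternatives, 0 of the 41 genes had an adjusted p under 0.05 (lowest 0.111), with ATR and ERCC5 absent from the length trend setting for want of a length. Under the settings run for ratios 0 ratios passed. There 1 ratio alone at the smallest exact p could not pass, so that count does not say whether a ratio differed. RAD51C, XRCC3 and CHEK2 kept their direction and an unadjusted p of 0.05 or less in all 20, and UNG and XPC in 17. Of the 41 genes, 23 kept their sign in every alternative and 18 did not. The number of all entries with an adjusted p under 0.05, 101 as reported, was 51 with no filter, 26 without small structured RNAs, 65 with the length trend removed, 54 without the variance trend and 49 to 159 when 1 library was left out. The number of repair genes at an unadjusted p of 0.05 or less was 5 to 8 when 1 library was left out. Over all entries 12.7% to 19.4% met that rule in those settings. Without empty vector replicate 2 the number of repair genes was 8, 5 higher and 3 lower, with XPA, FANCI and ERCC3 added, beside 19.4% of all entries.

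Scaling moved the class medians. The median of the 41 genes was -0.004 with upper quartiles made equal, -0.019 after quantile normalization and -0.037 with the length trend removed. For homologous recombination it was -0.059 under quantile normalization, -0.102 with the length trend removed and -0.027 to 0.115 with 1 library left out. For excision repair it was -0.041 with upper quartiles made equal, -0.046 after quantile normalization, -0.043 with the length trend removed and -0.047 to 0.039 with 1 library left out, and for break sensing -0.072 with the length trend removed. The median of all entries was 0.010 after quantile normalization, 0.011 with upper quartiles made equal and 0.005 with the length trend removed. Higher calls at an unadjusted p of 0.05 or less were 84.1% of such calls over all entries as reported and 55.5%, 55.9% and 52.9% under those settings in that order, and among the repair genes 3 of 5 as reported, 1 of 5, 1 of 5 and 1 of 4.

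Signs reversed for genes close to 0. Under quantile normalization the log2 fold change was -0.006 for MSH3, -0.010 for PMS2, -0.059 for RAD51D, -0.029 for ATM, -0.023 for CHEK1, -0.019 for ERCC1 and -0.046 for ERCC2. With equal upper quartiles it was -0.001 for PMS2, -0.048 for RAD51D, -0.021 for ATM, -0.022 for CHEK1, -0.003 for PARP1, -0.004 for ERCC1 and -0.041 for ERCC2. With the length trend removed it was -0.023 for MSH3, -0.037 for PMS2, -0.102 for RAD51D, -0.072 for ATM, -0.040 for TP53BP1, -0.023 for PARP1, -0.019 for ERCC1 and -0.064 for ERCC2. Without mitochondrially encoded and the 100 most abundant entries it was -0.032 for RAD51D, -0.003 for ATM, -0.004 for CHEK1 and -0.023 for ERCC2, and with array weights -0.075 for RAD51D. The cause was not tested.

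With 1 library left out, the log2 fold change ranged from -0.046 to 0.145 for ATM, -0.095 to 0.031 for BRCA1, -0.002 to 0.135 for ERCC1, -0.047 to 0.082 for ERCC2, -0.209 to 0.039 for ERCC4, -0.112 to 0.057 for FANCA, -0.119 to 0.013 for FANCL, -0.035 to 0.029 for MRE11, -0.216 to 0.034 for OGG1, -0.046 to 0.005 for PALB2, -0.080 to 0.023 for PMS1, -0.003 to 0.119 for PMS2, -0.059 to 0.115 for RAD51D, -0.019 to 0.130 for TP53BP1 and -0.058 to 0.021 for XRCC2. The ratio difference ranged from -0.005 to 0.163 for ATR/ATM, -0.168 to 0.006 for BRCA1/TP53BP1, -0.189 to 0.000 for ERCC2/ERCC3, -0.006 to 0.131 for FANCD2/FANCI, -0.031 to 0.059 for MSH6/MSH3, -0.266 to 0.063 for PMS2/MLH3 and -0.082 to 0.158 for RAD51D/XRCC2.

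Samples with the same replicate number correlated at 0.04, 0.03, -0.07 and 0.06 in their deviations from the group means, so the numbers share no more than a name. A replicate block gave 69 entries with an adjusted p under 0.05, 6 repair genes at an unadjusted p of 0.05 or less (FANCI added) and 0 past adjustment. Over all entries 15.8% met the unadjusted rule with that block. For the ratios, pairing by number allows an exact p of 0.125 at the least, and RAD51C/XRCC3 gave 0.125. With the depth of the libraries unknown, counting error behind genes below 10 TPM such as ERCC4 and MLH3 could not be separated from other spread.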
